A study of Danio rerio with 24 samples.

Results

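Cilia are hair-like extensions of the cell surface built around a core of doublet microtubules, the axoneme. Nearly all of them are assembled and maintained by intraflagellar transport (IFT) trains, and the BBSome carries membrane proteins in and out. Motile cilia, which in zebrafish line brain ventricles on ependymal cells and sit in bundles on multiciliated cells of kidney tubules, also carry dynein arms, radial spokes and a central pair, and their genes are switched on by the forkhead factor Foxj1. Ciliary genes were taken by symbol from the deposited count files: intraflagellar transport, axonemal dynein heavy, intermediate and light chains, dynein arm assembly factors, BBS, radial spoke, spag, tektin, foxj1, cfap and tectonic genes. Of 14781 genes, 46 carried such a symbol, and none was a tectonic gene. By what their products are known to do, 24 were classed as motile, 20 as general and 2 (spag7 and spag9a) as neither. The classes were set with earlier results of these data known.

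The fish were EK strain adult males aged 4 to 12 months, and RNA came from their brain and whole kidney marrow, in a study of how distant organs respond to heart injury. In the ablation experiment, fish with cardiomyocyte ablation and uninjured fish, all wild type, gave 2 libraries per tissue and condition. In the cebpd experiment, 3 libraries came from brains of ablated wild type fish and 3 from ablated cebpd homozygous knockout fish, called mutant here, so both of its groups were injured. Ablation was by a bath in 0.5 to 0.7 µM tamoxifen for 17 h, with tissue collected on day 7. The labels do not name the transgene, and whether uninjured fish were bathed, or animals pooled, is not stated. Replicates are not said to be separate animals, so p-values measure only the spread between libraries.

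Gene reads per library numbered 14364306 to 20469655 in the ablation experiment, while libraries of the cebpd experiment had 4377028 to 6280007. The 46 ciliary genes took 0.0659% to 0.0944% of them. Levels are gene read counts scaled to the size of each library (CPM) with TMM scaling over all 14 libraries. They were compared between libraries for 1 gene at a time, since transcript lengths were not used. Neuron and glia markers summed to 20356 to 22293 CPM in the brain libraries of the ablation experiment and to 211 to 279 CPM in kidney marrow. Nephron markers summed to 1509 to 1578 and 23178 to 31690 CPM. The brain sum is not a measure of kidney RNA, since some nephron markers are also expressed in brain. Of 41 tested, 8 were higher in uninjured brain than in uninjured kidney marrow and 33 lower (edgeR adjusted p under 0.05), beside 38.9% and 39.2% of all genes. slc4a4a, for example, had 11454 and 10024 reads in uninjured brain and 2025 and 2061 in uninjured kidney marrow. In bulk tissue, fewer cells of a type and less RNA per cell cannot be told apart. Germ cell markers differed between kidney marrow libraries. ddx4, which marks germ cells, stood at 17.6 and 0.565 CPM in uninjured replicates 1 and 2 and at 0.0684 and 9.01 CPM in ablated replicates 1 and 2. The summed level of the 23 germ cell markers was 157 and 49.9 CPM in the uninjured pair and 43.5 and 98.8 CPM in the ablated pair, and motile axonemes are also made in sperm. Counts of motile genes that rest on kidney marrow are therefore also given without a library of high ddx4.

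The motile and the general genes lay on opposite sides in the comparison of uninjured brain with uninjured kidney marrow. Of 23 motile genes tested, 17 were lower in brain, 2 were higher and 4 did not pass the threshold of an edgeR adjusted p of 0.05. Of 18 general genes tested, 16 were higher in brain, 0 were lower and 2 did not pass. The median log2 fold change was -2.02 over the motile genes (range -4.66 to 0.70) and 0.94 over the general genes (range -0.22 to 3.02). Among all 12936 genes tested, 38.9% were higher in brain and 39.2% lower, with a median of -0.0016, so calls were common in this contrast. Libraries of the tissues did not overlap for 20 ciliary genes above and 20 below in brain, beside 45.4% and 45% of all genes. Summed over the 24 motile genes, levels were 189 and 181 CPM in uninjured brain and 456 and 449 CPM in uninjured kidney marrow. Summed over the 20 general genes, they were 514 and 516 CPM in brain and 290 and 282 CPM in kidney marrow.

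The forkhead regulators stood higher in kidney marrow. foxj1a measured 17.7 and 14.7 CPM in uninjured brain and 66.3 and 86.8 CPM in uninjured kidney marrow, with 2 libraries in each group (log2 fold change -2.24, SE 0.18, edgeR adjusted p = 8.11e-05). foxj1b measured 7.54 and 6.90 CPM in brain and 39.3 and 46.7 CPM in kidney marrow, with a log2 fold change of -2.58 (SE 0.15, edgeR adjusted p = 2.1e-05). For both paralogs the lowest kidney marrow library lay above the highest brain library. All 10 brain libraries, injured or not and of either cebpd genotype, stayed between 7.10 and 18.8 CPM for foxj1a and between 5.40 and 8.27 CPM for foxj1b.

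Subunits of the dynein arms, the motors that slide the doublets, split within the motile class. dnah9, a heavy chain of the outer arm, measured 1.13 and 1.22 CPM in uninjured brain and 27.6 and 32.1 CPM in uninjured kidney marrow. Its log2 fold change of -4.66 (SE 0.19, edgeR adjusted p = 5.49e-06) was the most negative among the ciliary genes. dnai2a, an intermediate chain of the outer arm, had 7 reads over both uninjured brain libraries and 174 over both kidney marrow libraries, with a log2 fold change of -4.53 (SE 0.48, edgeR adjusted p = 0.000309). Scaled to library size, the ratio of kidney marrow to brain reads was 23.9 with a 95% counting interval of 11.3 to 60.2. dnali1, a light intermediate chain of the inner arm, was also lower in brain, with 1.57 and 1.15 CPM there and 9.10 and 6.52 CPM in kidney marrow (log2 fold change -2.51, SE 0.30, edgeR adjusted p = 0.000556). The light chain genes dnal1 and dnal4a went the other way in these libraries. dnal1, whose product binds the outer arm heavy chain, measured 19.8 and 19.9 CPM in brain and 13.2 and 11.4 CPM in kidney marrow (log2 fold change 0.69, SE 0.14, edgeR adjusted p = 0.00494). dnal4a measured 25.4 and 23.5 CPM in brain and 12.6 and 17.4 CPM in kidney marrow (log2 fold change 0.70, SE 0.18, edgeR adjusted p = 0.0138), and its call was lost without either brain library (edgeR adjusted p = 0.0965 and 0.0633). In brain of the cebpd experiment dnal4a measured 9.42 to 12.6 CPM, beside 11.4 to 17.4 CPM over the kidney marrow libraries of both conditions. Its paralog dnal4b gave 0.07 (SE 0.21) and did not pass.

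Genes for the assembly of the arms were lower in brain where they were called. dnaaf1, an assembly factor whose loss gives cystic kidneys in zebrafish, measured 1.07 and 1.56 CPM in brain and 8.42 and 8.34 CPM in kidney marrow (log2 fold change -2.68, SE 0.26, edgeR adjusted p = 0.000213). spag1a, whose human counterpart SPAG1 also acts in arm assembly, was well detected in both tissues, at 47.5 and 47.8 CPM in brain and 91.0 and 72.6 CPM in kidney marrow, and differed less (log2 fold change -0.78, SE 0.13, edgeR adjusted p = 0.00245). spag1b, its paralog, gave -0.51 (SE 0.22) and did not pass. dnaaf2 had 0 reads in all 14 libraries, as did the IFT genes ift122 and ift27. These 3 of 46 genes are 6.52% of the ciliary genes, against 3.59% of all genes in the files with no read. Over 170395453 gene reads in all, a count of 0 says only that no read was assigned to these symbols.

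Spokes, tektins and the central pair followed the heavy chain with 1 exception. rsph10b, of the radial spoke, measured 3.14 and 3.92 CPM in brain and 30.4 and 33.8 CPM in kidney marrow (log2 fold change -3.19, SE 0.17, edgeR adjusted p = 1.57e-05). In the GRCz12tu annotation it overlaps dlgap5, a mitotic spindle gene at 1.13 and 1.28 CPM in uninjured brain and 32.2 and 19.3 CPM in uninjured kidney marrow. Other called genes overlap a more abundant gene. dnali1 overlaps gnl2 (31.8 and 31.8 CPM in uninjured brain, 60.5 and 68.9 CPM in uninjured kidney marrow). ift80 overlaps kpna4 (268 and 262 CPM, 168 and 171 CPM), and bbs2 overlaps nup93 (89.1 and 88.6 CPM, 80.4 and 62.7 CPM). ift22 overlaps atp5l, which went the opposite way to ift22 (157 and 150 CPM, 260 and 269 CPM). The part of shared reads in these values was not tested. rsph9, a spoke head gene, gave -1.96 (SE 0.29, edgeR adjusted p = 0.00135). rsph3, of the spoke stalk, measured 17.9 and 16.4 CPM in brain and 18.1 and 19.2 CPM in kidney marrow, a log2 fold change of -0.12 (SE 0.13) that did not pass. The rsph3 value turned to 0.10 with no scaling and to 0.02 in the ablated libraries. In brain of the cebpd experiment rsph3 was lower, at 1.34 to 3.57 CPM.

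All 3 tektins, filament proteins of the doublet wall, were lower in brain. tekt4 measured 1.57 and 1.22 CPM there and 16.5 and 14.1 CPM in kidney marrow (log2 fold change -3.45, SE 0.23, edgeR adjusted p = 4.08e-05). tekt1 gave -2.53 (SE 0.36) and tekt2 -2.38 (SE 0.35). spag6, of the central pair, measured 3.71 and 3.18 CPM in brain and 14.03 and 12.7 CPM in kidney marrow (log2 fold change -1.95, SE 0.19, edgeR adjusted p = 0.000204).

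The 5 motile cfap genes encode further axoneme and basal body proteins, and 4 of them were lower in brain. cfap52, cfap53 and cfap45, whose products lie inside or along the doublets, gave log2 fold changes of -2.11 (SE 0.29), -2.02 (SE 0.30) and -1.40 (SE 0.22). In brain of the cebpd experiment cfap53 measured 6.07 to 13.1 CPM, which overlapped the 7.60 to 11.3 CPM of the kidney marrow libraries. cfap58 gave -1.99 (SE 0.19). cfap126, known in mouse as Flattop for its role in basal body positioning, measured 9.997 and 12.5 CPM in brain and 12.97 and 8.03 CPM in kidney marrow, and its log2 fold change of 0.09 (SE 0.27) did not pass.

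**Figure D1:**
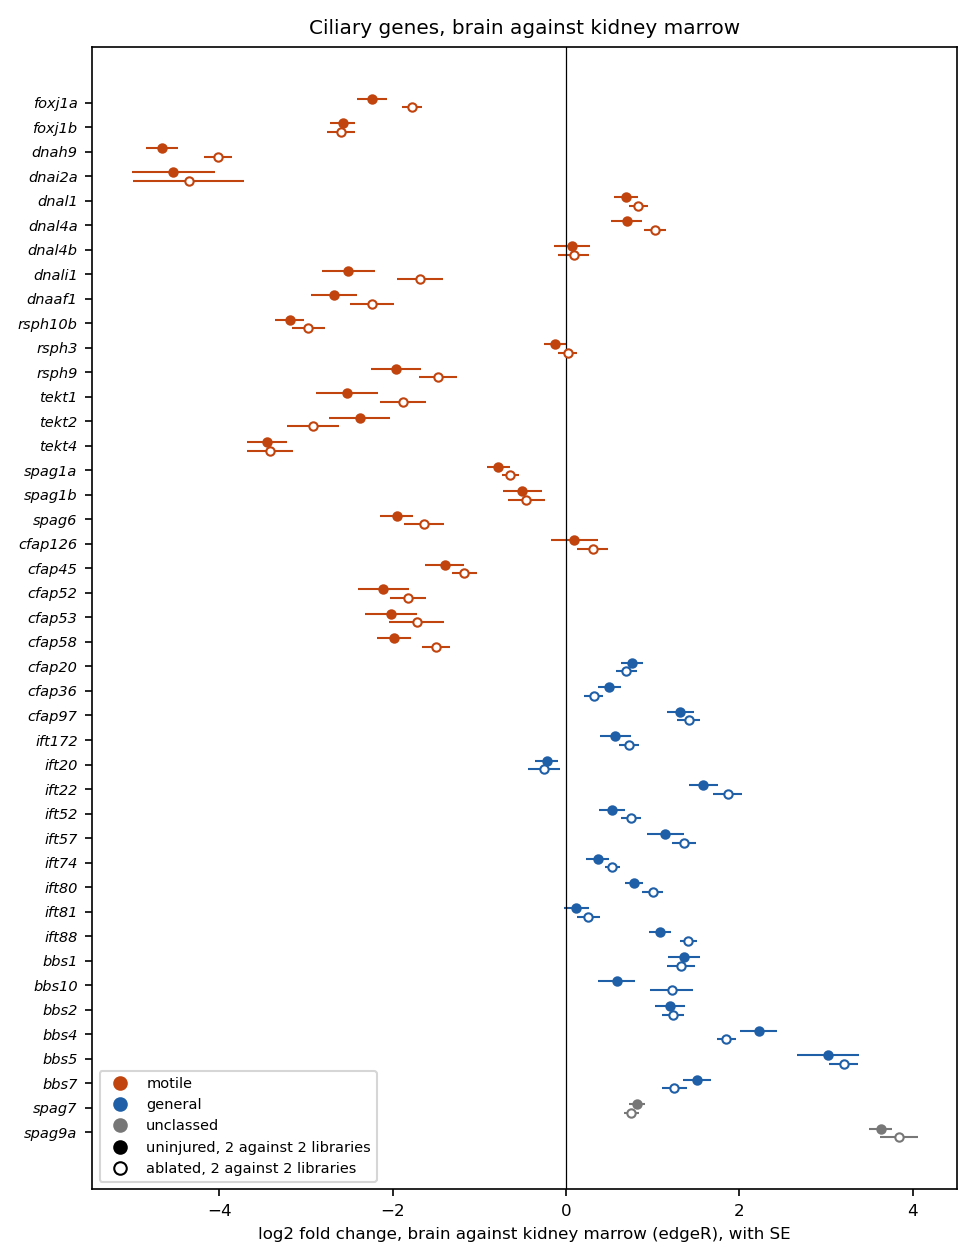
Log2 fold change of each tested ciliary gene (rows) in brain against kidney marrow, with its SE as bars; filled points are uninjured and open points ablated libraries, and colours give the motile, general and unclassed genes. Motile genes lie mostly left of 0, down to -4.66 for dnah9, and general genes mostly right of 0, up to 3.02 for bbs5 in the uninjured libraries.

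IFT genes, needed for nearly all cilia, were higher in brain in 7 of 9 tested members, and 0 were lower. ift88, a core component of the trains, measured 57.8 and 57.9 CPM in uninjured brain and 24.4 and 29.9 CPM in uninjured kidney marrow (log2 fold change 1.09, SE 0.13, edgeR adjusted p = 0.000487). ift22, a small GTPase of the same complex, measured 12.8 and 13.7 CPM in brain and 4.30 and 4.52 CPM in kidney marrow (log2 fold change 1.58, SE 0.17, edgeR adjusted p = 0.000319). Brain and kidney marrow libraries did not overlap for either gene. ift57 (1.14, SE 0.21), ift80 (0.78, SE 0.11), ift172 (0.57, SE 0.18), ift52 (0.53, SE 0.15) and ift74 (0.36, SE 0.13) were higher by smaller log2 fold changes. ift20, whose product also works at the Golgi, measured 12.95 and 12.98 CPM in brain and 14.96 and 15.2 CPM in kidney marrow, a log2 fold change of -0.22 (SE 0.13) that did not pass. ift81 gave 0.12 (SE 0.14) and did not pass. Leaving out either uninjured brain library left 4 of the 9 called (ift22, ift57, ift80 and ift88) and ended the calls of ift172, ift52 and ift74. The call of ift74 was also lost in DESeq2, with no low-count filter and at a minimum mean count of 50.

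All 6 BBS genes were higher in brain, with log2 fold changes from 0.58 to 3.02. bbs5, a BBSome subunit, measured 23.9 and 20.4 CPM in brain and 1.62 and 3.83 CPM in kidney marrow (log2 fold change 3.02, SE 0.36, edgeR adjusted p = 0.000501). bbs4, another subunit, measured 29.9 and 25.8 CPM in brain and 7.04 and 4.83 CPM in kidney marrow (log2 fold change 2.22, SE 0.21, edgeR adjusted p = 0.000191). In both genes every brain library stood several times above every kidney marrow library. The subunit genes bbs7, bbs1 and bbs2 gave 1.51 (SE 0.16), 1.36 (SE 0.19) and 1.20 (SE 0.17). bbs10, which encodes a chaperonin-like protein that helps to assemble the BBSome, gave 0.58 (SE 0.21, edgeR adjusted p = 0.0442). The bbs10 call was lost in DESeq2 and without uninjured brain replicate 1 or 2 or uninjured kidney marrow replicate 1, which left 5 of 6 called.

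The 3 cfap genes classed as general were higher in brain as well: cfap97 by a log2 fold change of 1.32 (SE 0.16), cfap20 by 0.76 (SE 0.13) and cfap36 by 0.50 (SE 0.13), whose call was lost without either uninjured brain library. Of the unclassed genes, spag9a, whose human counterpart is a scaffold for JNK kinases and microtubule motors, measured 70.1 and 76.9 CPM in brain and 5.49 and 6.34 CPM in kidney marrow (log2 fold change 3.63, SE 0.13, edgeR adjusted p = 3.98e-06). spag7 gave 0.82 (SE 0.09). Both spag genes thus stood on the side of the general class.

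The ablated libraries, which share no library with the uninjured ones, gave the same counts. In ablated brain against ablated kidney marrow 17 motile genes were lower and 2 higher, and 16 general genes were higher and 0 lower, against 41% of all genes higher and 41.2% lower. All 17 motile genes lower in brain in the uninjured contrast were lower in the ablated one, the 20 ciliary genes higher were higher in both, and 0 were called in opposite directions. Without uninjured kidney marrow replicate 1, the library with the most ddx4, 17 motile genes were lower in brain, 3 were higher, and 15 general genes were higher. In the ablated contrast without kidney marrow replicate 2, 17 motile genes were lower, 3 higher, 17 general genes higher and 1, ift20, lower. Within a condition, the library with more ddx4 had the higher level for 15 of 23 motile genes in the uninjured pair (median ratio 1.15). In the ablated pair it was 16 of 23 (median ratio 1.07). For the general genes it was 8 of 18 in each pair (median ratios 0.967 and 0.979). The share over all genes was not taken.

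**Figure D2:**
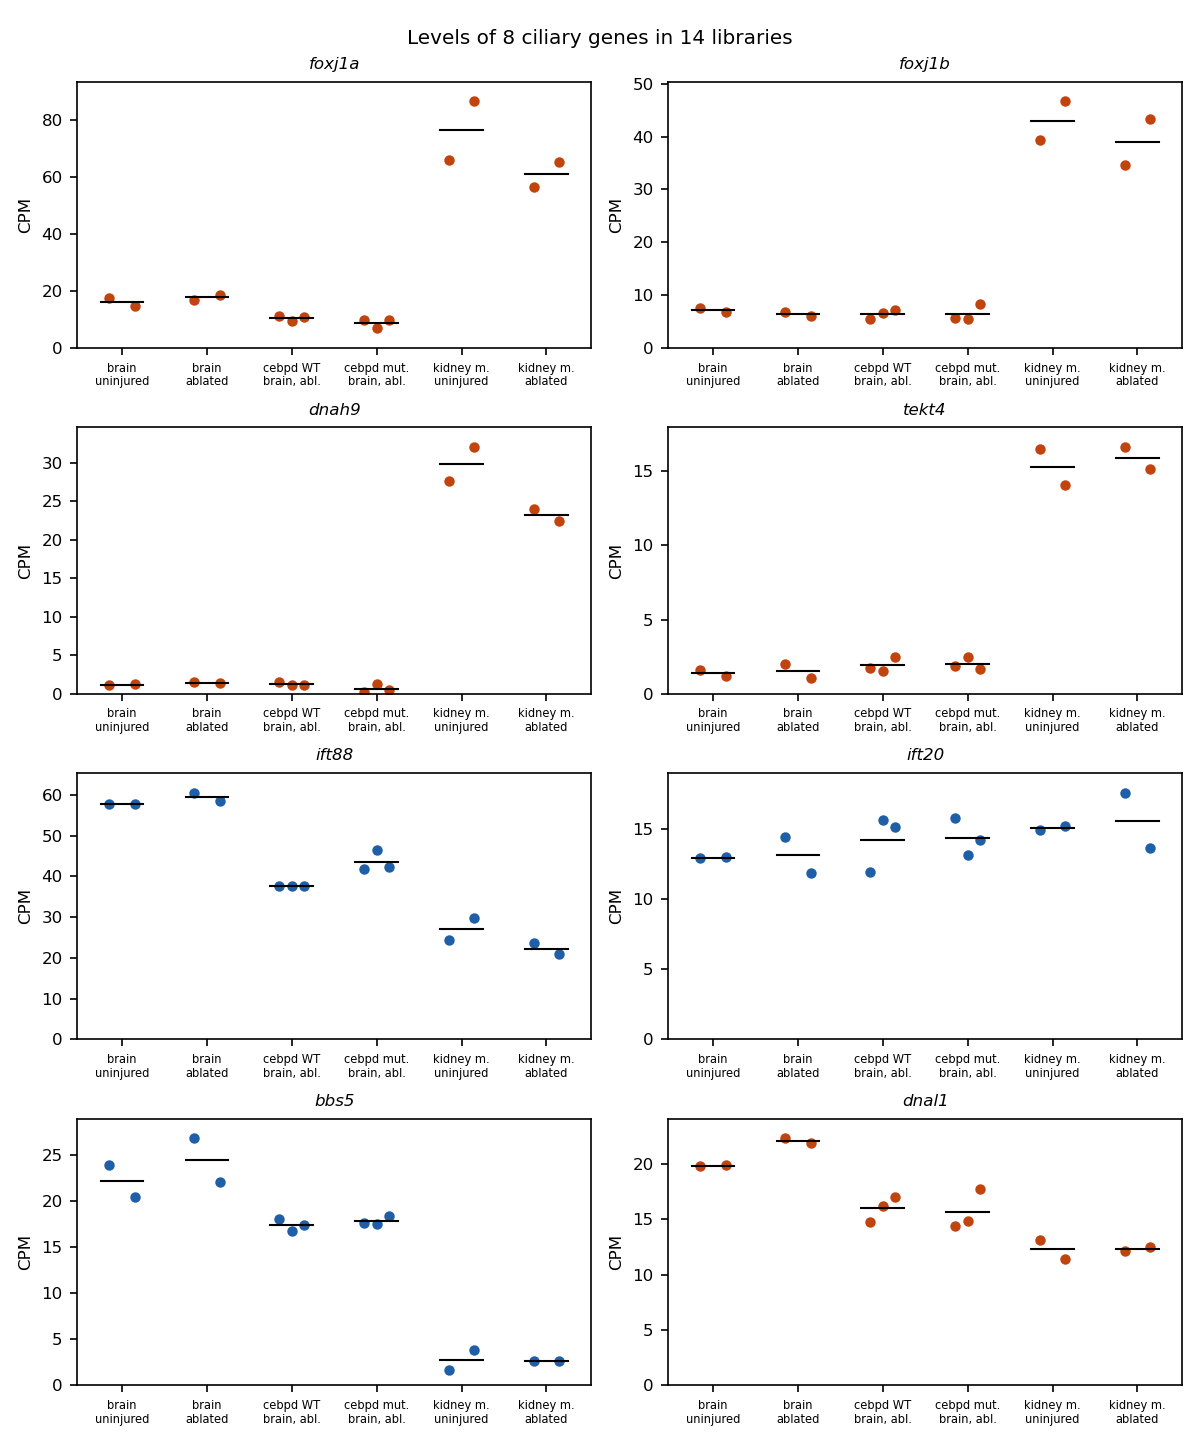
CPM of 8 ciliary genes (panels, linear axes from 0) in each of the 14 libraries (points), with the group mean as a line; WT is wild type, mut. mutant, abl. ablated and kidney m. kidney marrow. The motile genes foxj1a, foxj1b, dnah9 and tekt4 are highest in the 4 kidney marrow libraries, ift88, bbs5 and dnal1 are lowest there, and ift20 lies between 11.8 and 17.6 CPM in every library.

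Lists of other genes of the same pathways, without such symbols, were also taken. They were chosen with earlier results of these data known and come from the same libraries, so they are no independent test of the split. Of 53 other motile axoneme genes tested, 43 were lower in brain and 2 (iqca1 and lrrc48) higher, beside 39.2% and 38.9% of all genes. Their median log2 fold change was -1.53. capsla, a calcium-binding gene of ciliated cells, gave -4.32 (SE 0.19), and the central pair gene hydin gave -2.64 (SE 0.15). Of 53 other general cilium genes tested, 36 were higher in brain and 3 (invs, ofd1 and poc1b) lower, beside 38.9% and 39.2%. Their median was 1.04. Subunit genes of kinesin-II motors, which drive IFT among other transport, had the smallest p of this list. kif3cb gave 6.33 (SE 0.14), kifap3a 3.71 (SE 0.12) and kifap3b 3.68 (SE 0.11). The subunit gene kif3b differed less, with 665 and 624 reads in uninjured brain and 230 and 226 in uninjured kidney marrow. Kinesin-II also carries cargo in axons. Of the neuron and glia markers, a list chosen for brain cells, 26 of 26 tested were higher in brain, beside 38.9% of all genes. The part of neurons in the kinesin-II values was not tested. Among 10 tested genes of multiciliated cell fate, 3 were higher and 5 lower, beside 38.9% and 39.2% of all genes. So few genes say little about this list. The rfx genes rfx1a (2.47, SE 0.12), rfx4 (2.14, SE 0.14) and rfx3 (1.81, SE 0.12) were higher, while rfx2 gave -0.04 (SE 0.14) and did not pass. myb (-6.85, SE 0.21), the lowest of the list, also marks blood progenitors.

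The brain libraries of the ablation experiment held reads of kidney tubule genes. cdh17, a kidney tubule cadherin, averaged 10.5 CPM in those 4 libraries, 0.262% of its kidney marrow level, and 0.0486 CPM, 0.00121% of that level, in the 6 brain libraries of the cebpd experiment. Other nephron markers differed less between the experiments. In the same order, slc22a2 stood at 0.606% and 0.176% of its kidney marrow level and slc12a3 at 0.319% and 0.0447%. atp1a1a.4 stood at 0.292% and 0.0387%, and hnf1bb at 0.242% and 0.00619%. Shares of the kidney marrow level were also taken for motile genes, and the part of kidney RNA in their brain values was not tested. dnah9 stood at 4.93% of it in the ablation experiment and 3.59% in the cebpd experiment, tekt4 at 9.37% and 12.5%, foxj1b at 16.7% and 15.7%, and foxj1a at 24.8% and 14.2%. In brain many motile genes were at low levels. There 1 CPM stood for 14.2 to 18.5 reads in the ablation experiment and 4.61 to 6.86 reads in the cebpd experiment. The mean was under 3 CPM for 10 of the 24 motile genes in brain in the ablation experiment and for 13 in the cebpd experiment, against 0 of 24 in kidney marrow, with dnaaf2 at 0 reads counted in neither.

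**Figure D3:**
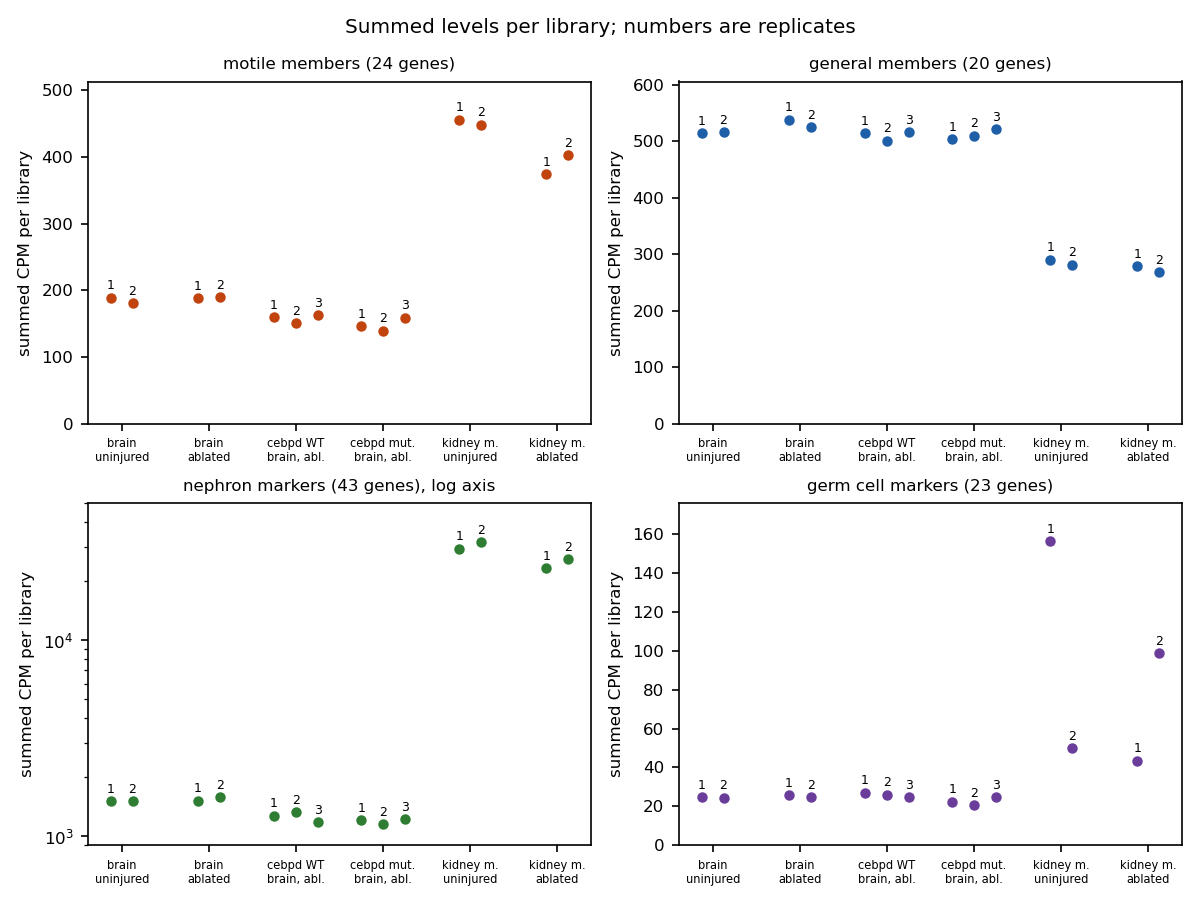
Summed CPM per library (points, labelled with the replicate number) of the motile and general ciliary genes and of the nephron and germ cell markers; the nephron panel has a log axis. Motile genes sum to 374 to 456 CPM in kidney marrow and 139 to 190 CPM in brain, general genes to 268 to 290 and 501 to 538 CPM, and germ cell markers are highest in kidney marrow uninjured replicate 1 at 157 CPM.

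In the brain after cardiomyocyte ablation, 0 of 42 tested ciliary genes passed in edgeR, where 0.283% of all genes were called higher and 0.17% lower. At an unadjusted p under 0.05, edgeR listed 2 of them, beside 6.85% of all genes. DESeq2 called 0 and listed 1 under 0.05. Over the 22 motile genes tested, 14 had a log2 fold change above 0 and the median was 0.09. Among all genes 49.6% lay above 0. The smallest p belonged to spag9a, which measured 59.8 and 52.8 CPM after ablation and 70.1 and 76.9 CPM in uninjured brain. Libraries did not overlap between the groups for 12 ciliary genes above and 4 below, spag9a among the latter, beside 18.5% and 17.5% of all genes. For spag9a the log2 fold change was -0.39 (SE 0.08, edgeR adjusted p = 0.0827). It passed with no low-count filter (log2 fold change -0.39, edgeR adjusted p = 0.0387). That fit called 46 of all genes higher and 36 lower, beside 35 and 21 in the main fit. Without ablated replicate 1, which leaves 1 library in that group, the log2 fold change of spag9a was -0.48. Over the alternatives without a replicate block its adjusted p ran from 0.0023 to 1.

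cfap97 and dnal4b followed in order of p. cfap97, a general gene, measured 30.5 and 31.7 CPM after ablation against 28.2 and 26.0 CPM (log2 fold change 0.20, SE 0.09, edgeR adjusted p = 0.715). dnal4b measured 6.90 and 8.27 CPM against 5.72 and 6.56 CPM (0.31, SE 0.17, edgeR adjusted p = 0.795). The foxj1 genes overlapped between the groups, with foxj1a at 17.0 and 18.8 CPM after ablation against 17.7 and 14.7 CPM and foxj1b at 6.90 and 6.05 CPM against 7.54 and 6.90 CPM. Of 52 other motile axoneme genes tested, 0 passed in edgeR, 4 had an unadjusted p under 0.05, 35 lay above 0, and the median was 0.09. In these libraries 29 of 36 markers of photoreceptor and pineal cells, which have a modified cilium, lay below 0 with 0 called. In edgeR 15 of the 36 had an unadjusted p under 0.05, beside 6.85% of all genes. Their summed level was 346 and 176 CPM after ablation and 284 and 441 CPM in uninjured brain, and the groups overlapped.

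**Figure D4:**
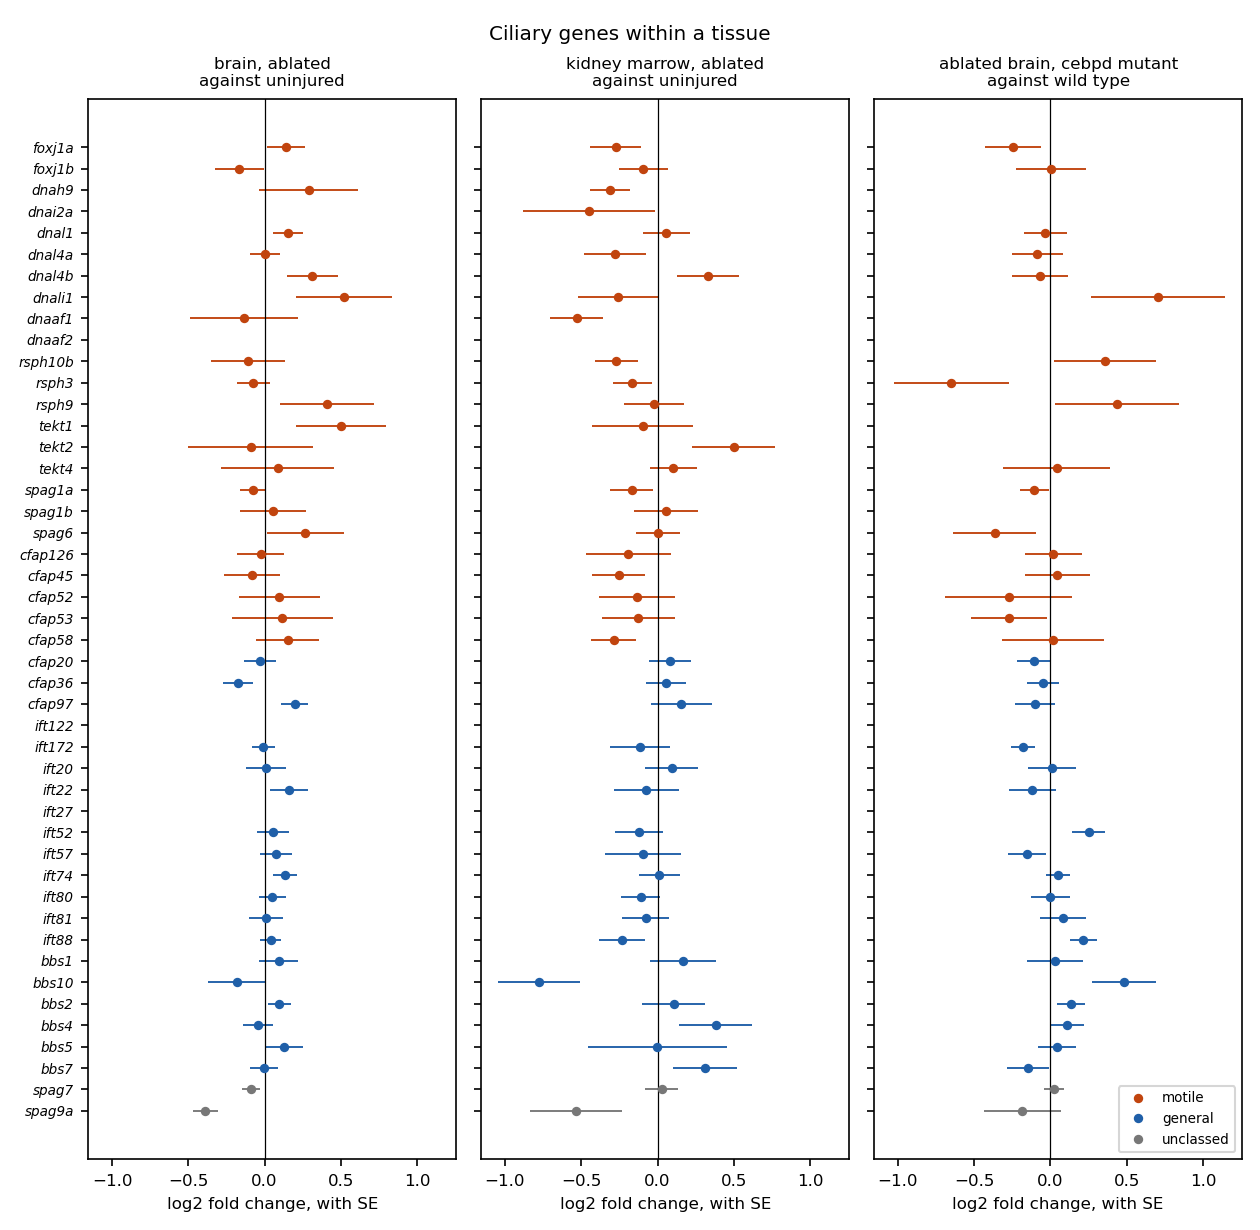
Log2 fold change with its SE of each ciliary gene (rows) in the 3 comparisons within a tissue, coloured by class; a row without a point was not tested. No point passed the threshold, and the values run from -0.78 for bbs10 in kidney marrow to 0.71 for dnali1 in the cebpd comparison.

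In kidney marrow after ablation, 0 of 43 tested ciliary genes passed in edgeR, which called 0% of all 12160 genes. At an unadjusted p under 0.05 edgeR listed 2 of the ciliary genes, beside 19.6% of all genes, and DESeq2 listed 0. DESeq2 called 0 of them, while over all genes it called 429 higher and 178 lower. Of the motile genes 17 of 23 lay below 0, with a median log2 fold change of -0.17, while 49% of all genes lay above 0 and their median was -0.0088. That count rested on single libraries. Without uninjured replicate 1, the library with the most ddx4, 10 of 23 lay below 0 and the median was 0.003, and without ablated replicate 1 it was 13 of 23 and -0.05. Without ablated replicate 2 it was 18 of 23 and -0.26, and without uninjured replicate 2 it was 20 of 23 and -0.12. Both ablated libraries lay below both uninjured ones for 9 of the 23 and above them for 2, where 29.6% and 23.6% of all genes did. Of the 18 general genes, 9 lay below 0, and their median was 0.01. Summed motile levels were 374 and 403 CPM after ablation and 456 and 449 CPM in uninjured kidney marrow. Of the 53 other motile axoneme genes, measured in the same libraries, 34 lay below 0, with a median of -0.12 and 0 called. Their count was not taken with a library left out.

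dnaaf1 had the smallest p in kidney marrow. It measured 5.54 and 5.67 CPM after ablation and 8.42 and 8.34 CPM in uninjured libraries, without overlap (log2 fold change -0.53, SE 0.17, edgeR adjusted p = 0.201). bbs10 measured 1.85 and 2.12 CPM against 3.37 and 3.70 CPM (-0.78, SE 0.27, edgeR adjusted p = 0.211). dnah9 measured 24.02 and 22.5 CPM against 27.6 and 32.1 CPM (-0.31, SE 0.13, edgeR adjusted p = 0.279). For all 3 the ablated libraries were the lower ones, and none passed. foxj1a measured 56.6 and 65.6 CPM against 66.3 and 86.8 CPM (-0.28, SE 0.17, edgeR adjusted p = 0.428), and foxj1b 34.6 and 43.3 CPM against 39.3 and 46.7 CPM (-0.09, SE 0.16), whose sign changed when ablated replicate 1 or uninjured replicate 2 was left out. Of the nephron markers 0 were called and 25 of 38 lay below 0 with a median of -0.27, and they summed to 23178 and 25878 CPM after ablation and to 29199 and 31690 CPM in uninjured libraries. Among the 16 germ cell markers tested, 14 lay below 0, with a median of -0.57. The part of nephron and germ cell RNA in these values was not tested.

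Whether the ablation response differed between brain and kidney marrow was tested with an interaction term in 8 libraries. edgeR called 0 of 43 ciliary genes, with 0 at an unadjusted p under 0.05, beside 16% of all genes. DESeq2 called 0 with 0 under 0.05. Of all genes, 0.0382% were called higher and 0.222% lower. Values are the log2 fold change in brain less that in kidney marrow, so a positive one means a more positive change in brain. Among the motile genes 19 of 23 were above 0, with a median of 0.18, against 51.7% of all genes and a median of 0.0153. Without uninjured kidney marrow replicate 1 it was 17 of 23 with a median of 0.19, and without ablated kidney marrow replicate 2 it was 21 of 23 with a median of 0.37. dnah9 had the smallest p (log2 difference 0.61, SE 0.25, edgeR adjusted p = 0.333), followed by bbs10 (0.59, SE 0.30, edgeR adjusted p = 0.390) and foxj1a (0.42, SE 0.22, edgeR adjusted p = 0.416). These share their libraries with the comparisons within each tissue.

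The cebpd comparison asks what the loss of cebpd, a C/EBP family transcription factor, changes in the brain of injured fish. cebpd itself measured 45.1, 71.3 and 38.2 CPM in wild type and 1.17, 2.78 and 0.827 CPM in mutant libraries, so the groups did not overlap (3 libraries each, log2 fold change -4.96, SE 0.33, edgeR adjusted p = 1.32e-05). Of 37 ciliary genes tested, edgeR called 0, with 4 at an unadjusted p under 0.05 beside 8.5% of all genes, and DESeq2 called 0 with 0 under 0.05. Over all genes 0.036% were called higher and 0.0991% lower. The median log2 fold change was 0.01 and 19 of 37 lay above 0, close to the 49.9% of all genes. The 9 genes not tested were the 3 without reads and dnaaf1, dnah9, dnai2a, spag1b, tekt1 and tekt2, which have few reads at this depth.

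All 4 genes of small p were general ones. ift88 measured 37.7, 37.6 and 37.6 CPM in wild type and 41.7, 46.5 and 42.4 CPM in mutant brain (log2 fold change 0.22, SE 0.09, edgeR adjusted p = 0.528). ift52 measured 26.7, 23.7 and 28.4 CPM against 31.0, 31.8 and 30.8 CPM (0.25, SE 0.11, edgeR adjusted p = 0.540). ift172 went the other way, at 79.0, 75.1 and 70.5 CPM against 65.4, 63.8 and 67.8 CPM (-0.18, SE 0.08, edgeR adjusted p = 0.546). The groups did not overlap for these 3 genes. In all, 6 ciliary genes lay above without overlap and 2 below, beside 6.38% and 7.08% of all genes. bbs10 gave 0.48 (SE 0.21, edgeR adjusted p = 0.565). foxj1a measured 11.3, 9.59 and 10.9 CPM in wild type and 9.89, 7.10 and 9.76 CPM in mutant brain, and foxj1b 5.42, 6.58 and 7.14 CPM against 5.70, 5.40 and 8.27 CPM, so the groups overlapped for both. spag9a spread widely within both groups, at 81.6, 61.0 and 32.3 CPM in wild type and 35.7, 55.0 and 59.1 CPM in mutant brain. Photoreceptor and pineal markers lay above 0 in 29 of 30, with a median of 1.21 and 1 called (saga, 2.14, SE 0.27). In edgeR 21 of the 30 had an unadjusted p under 0.05, beside 8.5% of all genes. These markers summed to 82.4, 338 and 370 CPM in wild type and 613, 756 and 463 CPM in mutant brain.

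Brain levels of several ciliary genes differed between the experiments. Ablated wild type brain of the cebpd experiment was set against ablated brain of the ablation experiment, a comparison added after seeing the data, in which experiment, fish line and depth cannot be told apart. Of 39 ciliary genes tested, 3 were higher and 10 lower in the cebpd experiment, beside 16.4% higher and 17.8% lower among all genes. Libraries did not overlap for 5 above and 17 below, beside 28.3% and 29.3% of all genes. rsph3 measured 15.9 and 16.7 CPM in the ablated libraries of the ablation experiment and 2.82, 3.57 and 1.75 CPM in the cebpd wild type libraries (log2 fold change -2.63, SE 0.23, edgeR adjusted p = 6.55e-06). The 4 brain libraries of the ablation experiment lay between 15.9 and 17.9 CPM, and all 6 of the cebpd experiment between 1.34 and 3.57 CPM, which is 96.4% and 12.6% of the kidney marrow mean. cfap53, whose loss disturbs left-right asymmetry in zebrafish, went up, from 3.45 and 1.89 CPM to 6.07, 9.97 and 13.1 CPM (log2 fold change 1.92, SE 0.33, edgeR adjusted p = 0.00104).

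dnal4a measured 25.8 and 23.4 CPM against 12.6, 10.7 and 12.2 CPM (log2 fold change -1.06, SE 0.13, edgeR adjusted p = 0.000127), and ift88 60.5 and 58.5 CPM against 37.7, 37.6 and 37.6 CPM (-0.67, SE 0.09, edgeR adjusted p = 0.000158). foxj1a was lower as well (-0.76, SE 0.14, edgeR adjusted p = 0.00198), while foxj1b gave -0.01 (SE 0.20). The other genes called higher were cfap36 (0.53, SE 0.12) and cfap20 (0.48, SE 0.11). The others called lower were bbs1 (-0.68, SE 0.16), spag1b (-1.15, SE 0.29), bbs5 (-0.49, SE 0.13), dnal1 (-0.47, SE 0.12), rsph10b (-1.03, SE 0.31) and ift81 (-0.46, SE 0.14). Leaving out ablation experiment brain replicate 1 left 1 higher and 5 lower, and leaving out its replicate 2 left 3 higher and 6 lower. With 1 library left out, the log2 fold change ran from -2.90 to -2.34 for rsph3 and from 1.52 to 2.37 for cfap53. It ran from -1.12 to -0.99 for dnal4a, from -0.69 to -0.64 for ift88 and from -0.83 to -0.68 for foxj1a.

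**Figure D5:**
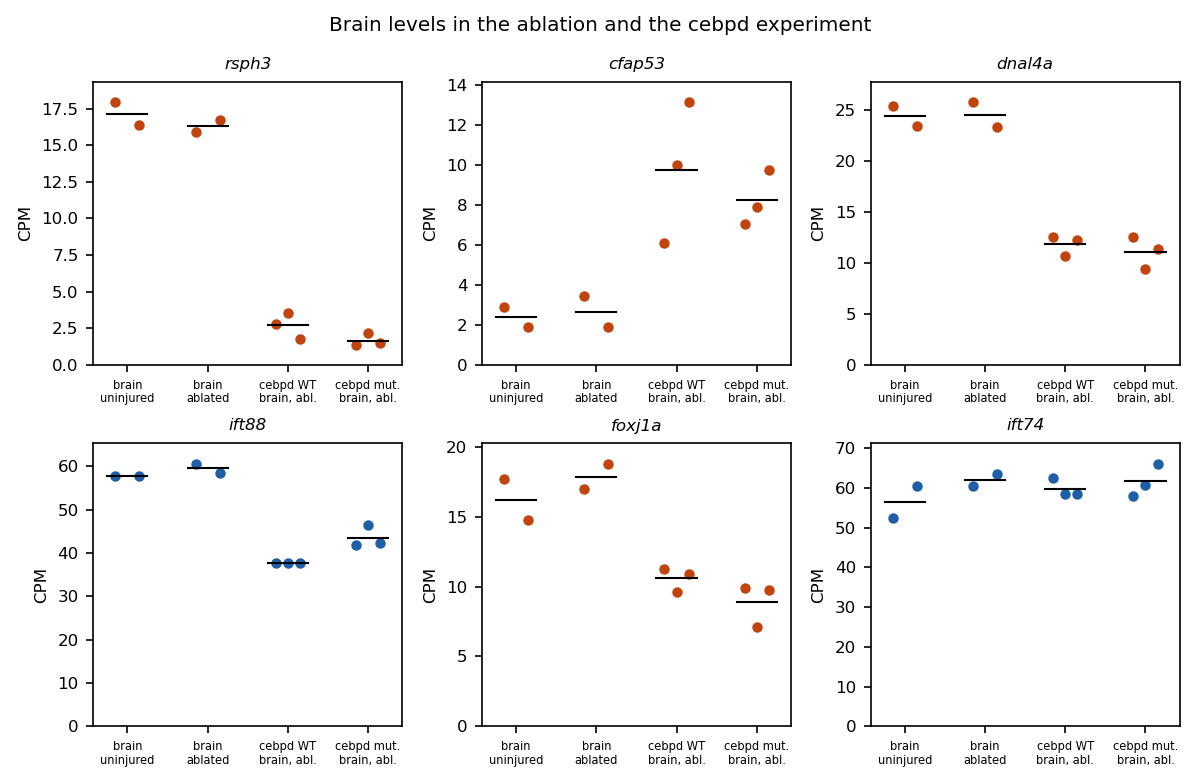
CPM of 6 ciliary genes (panels, linear axes from 0) in the 10 brain libraries (points) by group, with the group mean as a line. rsph3 and dnal4a are lower in all 6 libraries of the cebpd experiment than in the 4 of the ablation experiment, cfap53 is higher there, and ift74 spans 52.4 to 66.0 CPM over both.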

How the data were processed

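Of 24 samples, the 14 with RNA-seq are described, while 10 with ATAC-seq are not analysed here. What the authors deposited is a table per library of raw read counts by gene symbol, without normalization. Per the submitters' processing notes, which list tools for both assays together, TopHat2 2.1.1 and Bowtie2 2.2.5, HTSeq 1.6.1, MACS2, Picard 1.91, SAMtools 1.5 and Trim Galore (0.4.1 and 0.6.4) were used, and danRer10 is the build. Which annotation and strand setting served, and how reads with several matches were handled, is not given in the sources used, so paralog pairs (foxj1a and foxj1b, dnal4a and dnal4b, spag1a and spag1b) and overlapping genes may share reads. In the RefSeq table of GRCz12tu, used for names and neighbours, all 46 genes were found by symbol and 18 overlap another gene. Reads that HTSeq assigned to no feature were 56.6% to 58.3% in brain and 37.4% to 41.5% in kidney marrow libraries. Ambiguous reads were 0.254% to 1.23%, and both kinds were left out. There were 0 unused value columns.

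Fits used R 4.3.3 and edgeR 4.0.16: filterByExpr, TMM, glmQLFit and glmQLFTest on the groups compared, Benjamini-Hochberg adjustment over all genes tested and a threshold of 0.05. The edgeR steps were tested on simulated data. SE values were derived from the F statistic. The counting interval is the exact binomial one and covers counting error only. Alternatives were a minimum mean count of 50, dropping the low-count filter, RLE factors, no scaling, DESeq2 1.42.0, each library left out, a replicate block and wider fits. The named genes were the foxj1 genes, those past the threshold (up to 12 per direction) or the 3 of smallest p, the 3 of smallest p in each role for the tissue contrast, the most abundant of each role, cebpd and up to 3 genes of each list. Others were named after their values were seen. The members, classes and lists were chosen with earlier results of these data known.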

Additional observations from a re-analysis of the deposited data

How the results depend on the processing

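Where the reported count of called ciliary genes was above 0, it kept within 1.5 times under 82 of 87 alternatives, and a reported count of 0 was 0 under 107 of 111, which says little about stability where few genes could be called. In the ablated brain 1 gene, spag9a, was called lower with no low-count filter (log2 fold change -0.39) and under the replicate block (-0.39, edgeR adjusted p = 8.77e-07), and leaving out 1 library gave 0 to 1. The same numbers in 2 groups do not mark shared animals in the labels. Deviations of same-numbered libraries correlated at 0.017 in brain, 0.144 in kidney marrow, -0.06, -0.014 and -0.051 in the cebpd experiment and 0.128 between the tissues. Apart from spag9a, the block called 0 ciliary genes within either tissue, in the cebpd comparison and in the interaction. Between the tissues it called 19 higher and 17 lower and ended the call of bbs10. Over all genes the block called 163 higher and 195 lower in brain (main fit 35 and 21) and 433 and 165 in kidney marrow (0 and 0). It called 22 and 44 in the cebpd comparison (4 and 11), 61 and 196 in the interaction (5 and 29) and 5087 and 5120 between the tissues (5036 and 5065). Between the tissues, DESeq2 gave 18 higher and 17 lower, and leaving out 1 library gave 14 to 20 higher and 17 to 18 lower genes, with 1 to 3 motile and 11 to 16 general genes higher. In ablated libraries without kidney marrow replicate 2, 1 general gene was lower in brain. Calls over all genes between the tissues also changed with the library left out. With no scaling the median of all genes between the tissues moved to 0.22, and 20 ciliary genes were higher and 17 lower.

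rsph3 turned to 0.10 with no scaling, to 0.0179 in ablated libraries and to 0.0602 there without kidney marrow replicate 2. foxj1b turned to 0.0903 with no scaling between the experiments. With 1 library left out, foxj1b ran from -0.26 to 0.059 in kidney marrow after ablation, from -0.21 to 0.12 in the cebpd comparison, from -0.17 to 0.15 in the interaction and from -0.10 to 0.0908 between the experiments. Between the experiments leaving out 1 library gave 1 to 3 higher and 5 to 10 lower genes, and DESeq2 gave 3 and 7. The cause of these changes was not tested. With 2 libraries a group, small differences were not detectable, and motile genes in brain rest on few reads.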
